A study of Rattus norvegicus with 8 samples.

Results

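The T cell receptor complex and its proximal signalling genes were described by 38 genes, chosen by name for their known roles from the receptor's CD3 chains to the NFAT transcription factors. On the array, 32 of these genes were found by their gene names (the suffix _predicted removed, Cd247 written as Cd3z). A further 4 were found under other spellings: Lck and Zap70 with the suffix _mapped, Prkcq in capitals, and Sh2d1a under a locus name that RefSeq lists as its synonym. No probe of these names was found for Cbl and Nfatc1. The 36 genes measured, out of 12602 named genes on the array, had 44 probes of 60 bases, and the brightest probe of a gene stands for it. The array measures mRNA only, so protein at the cell surface and phosphorylation were not measured.

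The cells were primary thymocytes, the immature T lymphocytes of the thymus, of adrenalectomized male Sprague-Dawley rats, whose own source of adrenal glucocorticoid had thus been removed 1 to 2 weeks earlier. Each preparation pooled the thymi of 3 rats and was kept in culture for 6 hours, either untreated (Control, 4 arrays) or exposed to dexamethasone at 100 nM (Dex, 4 arrays), a synthetic glucocorticoid that induces apoptosis of these cells. The comparison asks which mRNAs differ between hormone-treated and untreated thymocytes, and it was made on Agilent 1-color rat genome arrays. Pools contain no information on single animals, and p-values measure the spread between these pooled cultures.

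The T cell receptor binds antigen, while the CD3 and CD247 (zeta) chains carry the signal into the cell. The kinase Lck, which is brought to the complex by the coreceptors CD4 and CD8, phosphorylates these chains, and ZAP-70 then binds them and phosphorylates the adaptor LAT, from which calcium, Ras and NFAT signalling start. Phosphatases, ubiquitin ligases of the Cbl family and diacylglycerol kinases restrain this relay, and in the thymus its strength decides whether a developing thymocyte survives.

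By the flag of the scanner software, between 24903 and 34473 of 41012 probes per array exceeded background clearly, with Dex 1 and Dex 2 lowest, and the 75th percentile of the signal was between 264 and 428. The array slides and the groups were largely confounded: 1 slide held Control 1 and Dex 3 on a scanner of its own, another held Control 2 to 4 and the last held Dex 1, 2 and 4. Only the difference Dex 3 minus Control 1 lies within a slide, and it is given beside the main results. It rests on 1 array per group and sets replicate 3 against replicate 1. Differences between replicates, among them the split of replicates 1 and 2 from 3 and 4 described below, are therefore part of it. All 8 detected markers of double positive thymocytes, of 10 listed, were above background on every array, which fits the label of thymocytes. Their summed signal was 26420 to 32508 in Control and 22513 to 25371 in Dex, so that the groups did not overlap, and all 8 were lower in Dex (median log2 fold change -0.37). Of the markers of other cells, 12 macrophage genes, of which 8 were higher in Dex, summed to 4709 to 6347 in Control and 4496 to 8967 in Dex, and 12 stromal and epithelial genes, of which 11 were higher in Dex, to 4082 to 5561 and 5374 to 7177. The markers with the largest gains, chosen after their values were seen, were higher on every Dex array. In the macrophage list this was Mrc1 (log2 fold change 2.12, limma adjusted p = 0.0870), and in the stromal and epithelial list Pecam1 (1.36, called with a limma adjusted p of 0.0208) and Pdgfrb (1.72, limma adjusted p = 0.160), whose probe was above background on 2 of 4 Control and 3 of 4 Dex arrays. The call of Pecam1 comes from the fit without a block, and whether it holds with the replicate block was not examined. The summed signal was 3318 to 3773 against 2474 to 4983 for 6 natural killer genes and 248 to 1286 against 246 to 2282 for 2 erythroid genes. The part of these shifts in the values below was not tested, and in whole cultures fewer cells of a type and less RNA per cell cannot be told apart.

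Probe sequences are shown for the genes that the signal to noise rule called and whose brightest probe crosses a splice junction, so that a reader can see what was measured. The probes of Lck, Cd5, Ptpn22 and Dgka cross a junction, since the positions that the scanner output gives span more genome than their 60 bases. They lie at chr5:148723208-148725315, chr1:213374913-213375739, chr2:199095566-199106951 and chr7:2019228-2019503 of build rn3. They are printed 5′ to 3′ as deposited, with no letters marked.
Lck probe: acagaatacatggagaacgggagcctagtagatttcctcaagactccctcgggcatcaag
Cd5 probe: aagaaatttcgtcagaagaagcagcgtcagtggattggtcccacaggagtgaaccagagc
Ptpn22 probe: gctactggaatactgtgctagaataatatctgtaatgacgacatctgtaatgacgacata
Dgka probe: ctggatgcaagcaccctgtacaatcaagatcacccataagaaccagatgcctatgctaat

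The promoters of Cblb and Ptpn22, which were higher in Dex, and of Lck and Cd5, which were lower, follow as 250 bases upstream of the RefSeq transcription start (build GRCr8, 5′ to 3′ on the gene's strand). They are at chr11:62225779-62226028 (minus strand) for Cblb, chr2:194054994-194055243 (plus) for Ptpn22, chr5:147201268-147201517 and chr5:147183651-147183900 (minus) for the first and second start of Lck, and chr1:216811210-216811459 (minus) for Cd5. Capitals mark the hexamer AGAACA, to which a single glucocorticoid receptor subunit binds, and the E box CAGGTG, which E proteins bind, each on either strand.
Cblb promoter: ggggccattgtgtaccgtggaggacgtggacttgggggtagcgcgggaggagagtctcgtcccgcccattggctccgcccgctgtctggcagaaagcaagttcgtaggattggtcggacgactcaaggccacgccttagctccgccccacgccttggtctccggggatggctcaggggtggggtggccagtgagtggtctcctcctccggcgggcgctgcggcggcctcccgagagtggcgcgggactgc
Ptpn22 promoter: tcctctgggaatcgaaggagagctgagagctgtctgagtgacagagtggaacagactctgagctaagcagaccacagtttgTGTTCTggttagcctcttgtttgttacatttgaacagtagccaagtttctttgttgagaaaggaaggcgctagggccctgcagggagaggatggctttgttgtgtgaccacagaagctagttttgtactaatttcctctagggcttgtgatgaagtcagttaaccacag
Lck promoter, first start: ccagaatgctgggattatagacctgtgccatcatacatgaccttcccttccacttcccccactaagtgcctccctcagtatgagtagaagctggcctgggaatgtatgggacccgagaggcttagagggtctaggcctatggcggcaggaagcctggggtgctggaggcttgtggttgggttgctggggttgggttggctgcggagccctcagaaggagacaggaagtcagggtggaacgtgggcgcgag
Lck promoter, second start: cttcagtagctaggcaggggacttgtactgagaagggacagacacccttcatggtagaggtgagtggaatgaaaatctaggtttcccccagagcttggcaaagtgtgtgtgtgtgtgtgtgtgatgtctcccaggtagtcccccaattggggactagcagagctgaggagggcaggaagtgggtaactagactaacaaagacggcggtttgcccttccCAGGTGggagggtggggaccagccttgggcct
Cd5 promoter: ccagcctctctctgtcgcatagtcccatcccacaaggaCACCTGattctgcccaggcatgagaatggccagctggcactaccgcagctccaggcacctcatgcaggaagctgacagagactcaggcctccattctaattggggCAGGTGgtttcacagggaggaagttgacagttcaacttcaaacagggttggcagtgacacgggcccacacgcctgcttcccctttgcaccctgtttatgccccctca

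RefSeq promoters of 300 bases were found for 27 of the 36 genes, 29 in all, since Lck and Dgkz have 2 each. The complete palindromic glucocorticoid receptor element, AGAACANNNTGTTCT, was in none of them and in 0.0149% of all 33469 promoters. The hexamer AGAACA, which the complete element contains, was in 3 of these 29 promoters (Ptpn22, Cd247 and Txk; 10.3%) against 20.7% of all promoters, so that it was no more frequent here than elsewhere. The E box CAGGTG was in 14 of the 29 promoters (48.3%, with those of Lck, Cd5, Cd3g, Cd247, Lat, Cd28 and Ctla4 among them) against 18.8%, the ETS core GGAAGT in 12 (41.4%) against 22.6%, the RUNX motif TGTGGT in 8 (27.6%) against 17.3%, and the TCF motif CTTTGA in 8 (27.6%) against 16.1%, each sought on both strands. Genes with the E box had differences on both sides of 0, as the values below show. These are matches of letters in a short window, and no binding was measured.

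Of the 36 genes, 13 were higher and 23 lower in Dex. The median log2 fold change, Dex minus Control, was -0.10, against 0.01 over all 12602 named genes, and within the shared slide it was -0.29 for the 35 genes measured there, against -0.06. Without Dex 3 the median was -0.03 and without Dex 4 -0.06, each with 16 genes higher and 20 lower, and without Dex 1 it was -0.15, with 11 and 25. limma, which tested all probes at an adjusted p of 0.05, called 1 of the 36, Cblb, where it called 1.1% of all named genes, and it called none of them lower, where 0.317% of all were called lower. With the replicate number as a block, limma called 0 of the 36. At an unadjusted p under 0.05 limma had 4 higher and 5 lower genes (11.1% and 13.9%, beside 6.53% and 5.78% of all named genes). A signal to noise rule modelled on the study's methods called 2 higher (Cblb and Ptpn22; 5.56% of the members) and 4 lower (Lck, Cd5, Dgka and Ptprc; 11.1%), beside 4.67% and 4.25% of all named genes. All Dex arrays lay above all Control arrays for 3 genes (8.33%; 5.91% of all named genes) and below them for 6 (16.7%; 5.78% of all). Among the 3 is Cd8b, whose Control 1 spot was left out as an outlier. In the deposited table that spot stood at 17.00, above every Dex array of Cd8b, so that the groups overlap there. Of the 32 genes found by name alone, 12 were higher and 20 lower, with 3 and 4 whose arrays did not overlap and a median of -0.08. Of the 9 genes among the 36 whose arrays did not overlap, the phosphatases, ubiquitin ligases and diacylglycerol kinases held 4, with 2 in each direction. The CD3 and CD247 chains held 0.

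**Figure D1:**
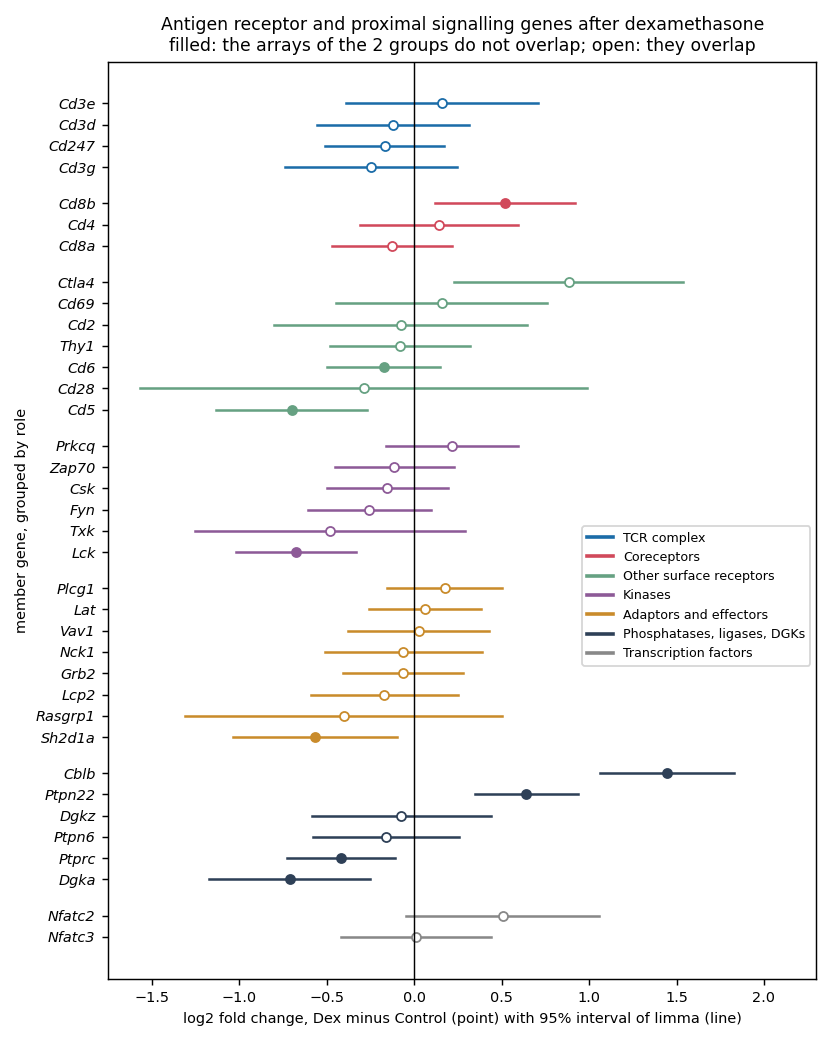
Log2 fold change (Dex minus Control, x axis) with its 95% interval for the 36 genes (y axis, grouped by role), where filled points mark genes whose Control and Dex arrays did not overlap. Cblb at 1.45 stands apart on the higher side, Cd5, Lck and Dgka lie near -0.70, and the CD3 chains lie around 0 with intervals that include it.

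The signalling chains of the receptor itself did not pass the test. Cd3g, Cd3d and Cd3e are neighbours within 26.0 kb (chr8:47933142-47959138, rn3), and each encodes a CD3 chain. For Cd3d, whose chain pairs with CD3 epsilon, the log2 intensity was 17.09, 16.99, 17.10 and 17.10 on Control 1 to 4 and 17.25, 17.21, 16.66 and 16.67 on Dex 1 to 4. Dex 1 and 2 lay above every Control array and Dex 3 and 4 below every one, so the mean difference of -0.12 ± 0.19 (SE, n = 4 and 4; limma adjusted p = 0.876) joins opposite values. For Cd3e the Control arrays read 12.41, 12.20, 12.23 and 12.07 and the Dex arrays 12.76, 12.79, 11.95 and 12.05, a difference of 0.16 ± 0.24 (limma adjusted p = 0.870). The same split is seen, with Dex 1 and 2 above and Dex 3 and 4 below all Controls. Within the shared slide Cd3e was at -0.47.

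Cd3g read 17.17, 17.12, 16.72 and 16.85 in Control and 17.04, 16.99, 16.43 and 16.42 in Dex (difference -0.25 ± 0.21, limma adjusted p = 0.749). Here replicates 3 and 4 were lower than replicates 1 and 2 in both groups. Cd247, the zeta chain with the most phosphorylation motifs of the complex, read 12.45, 12.61, 12.52 and 12.59 in Control and 12.50, 12.52, 12.17 and 12.32 in Dex (difference -0.17 ± 0.15, limma adjusted p = 0.755). Its Dex 3 and 4 lay below all Controls, while Dex 1 and 2 lay among them. The 95% interval of the difference was -0.56 to 0.31 for Cd3d, -0.39 to 0.71 for Cd3e, -0.74 to 0.24 for Cd3g and -0.51 to 0.17 for Cd247.

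The coreceptors gave one separated gene that rests on a doubtful spot. For Cd8b, the beta chain of CD8, the spot of Control 1 was an outlier by the scanner software's flag and was left out. The other Control arrays, 2 to 4, read 16.19, 15.85 and 15.81, and Dex 1 to 4 read 16.51, 16.42, 16.49 and 16.43. All Dex arrays were thus higher, by 0.52 ± 0.17 (SE, n = 3 and 4), and limma did not call it (adjusted p = 0.326). In the authors' deposited table, which keeps the outlier spot, Control 1 stood at 17.00, above every Dex array, and the difference was 0.25 (limma adjusted p = 0.805).

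Cd8a, the alpha chain, lies 41.05 kb from Cd8b, outer probe edge to outer probe edge (chr4:104796970-104838023, rn3). It read 15.15, 15.48, 15.33 and 15.20 in Control and 15.11, 15.04, 15.21 and 15.28 in Dex, a difference of -0.13 ± 0.15 (limma adjusted p = 0.821). The groups overlapped, and the sign turned within the shared slide (0.06). Cd4, the coreceptor for MHC class II, read 9.25, 9.50, 9.37 and 9.53 in Control and 9.66, 9.76, 9.06 and 9.73 in Dex (difference 0.14 ± 0.20, limma adjusted p = 0.857). Dex 1, 2 and 4 were above all Control arrays and Dex 3 was below all of them, and within the shared slide, which holds Dex 3, Cd4 was at -0.19.

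The kinase that starts the relay was lower on every Dex array, and the one that follows it was not separated. Lck, the Src family kinase that phosphorylates the CD3 chains, read 14.12, 14.27, 14.14 and 14.33 across Control and 13.34, 13.52, 13.59 and 13.70 across Dex. Each Dex array was below each Control array. The difference was -0.68 ± 0.15 (95% interval -1.02 to -0.34), a level 1.60-fold lower. limma gave it an adjusted p of 0.112, so it was not called, while the signal to noise rule called it, and within the shared slide the difference was -0.53. limma called Lck when dim probes were left out (adjusted p = 0.0481) and after normexp background correction (adjusted p = 0.0217). It also called Lck with the slide as a random block (adjusted p = 0.0136), where the estimated correlation within slides was -0.24. Apart from the shared slide, each slide held a single group, so a negative correlation narrows the error of the difference. That fit called 1840 probes, against 319 in the fit reported, and its calls here and below are not counted as support. The other limma fits did not call Lck, among them the slide as a fixed block. limma's adjusted p was 0.232 with the replicate block and 0.598 with 75th percentile scaling.

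Zap70, the Syk family kinase that binds the phosphorylated chains, read 14.56, 14.64, 14.46 and 14.67 in Control and 14.58, 14.61, 14.30 and 14.38 in Dex. Dex 1 and 2 were among the Controls and Dex 3 and 4 below them, with a difference of -0.11 ± 0.15 (limma adjusted p = 0.844). The 4 other kinases overlapped between the groups, and limma called none of them. Fyn, the other Src family kinase of T cells, was at -0.26 (adjusted p = 0.632) and at -0.32 by its second probe, and Csk, which inhibits both Src kinases, was at -0.15 (adjusted p = 0.784). By its second probe, which crosses a splice junction, the Csk arrays did not overlap (-0.21 ± 0.14), although limma gave that probe an adjusted p of 0.694. Txk, a Tec family kinase, was at -0.48 ± 0.34 with Dex arrays from 6.55 to 7.90 and Control arrays from 7.40 to 7.98. Prkcq, protein kinase C theta, was at 0.22 ± 0.16.

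Among the adaptors and effectors, only Sh2d1a was separated between the groups. Sh2d1a encodes SAP, the adaptor of the SLAM family receptors, and its probe was assigned through the RefSeq synonym alone. The probe lies at chrX:2539718-2539777 (rn3), while the RefSeq promoter of Sh2d1a is at chrX:126238950-126239199 (GRCr8), and this distance was not resolved. The probe read 13.17, 13.32, 12.97 and 12.90 in Control and 12.75, 12.84, 12.26 and 12.22 in Dex. The highest Dex array stood just below the lowest Control array (12.84 against 12.90). The difference was -0.57 ± 0.20 and limma did not call it (adjusted p = 0.359), while it was -0.91 within the shared slide. Lat, the membrane adaptor that ZAP-70 phosphorylates, read 14.48, 14.76, 14.65 and 14.66 in Control and 14.72, 14.61, 14.69 and 14.77 in Dex. With a difference of 0.06 ± 0.14 (95% interval -0.26 to 0.38; limma adjusted p = 0.914) it showed among the narrowest intervals of the 36 genes.

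The remaining 6 adaptors and effectors overlapped between groups and limma called none. Lcp2, the adaptor SLP-76, was at -0.17 and at -0.39 by its second probe. Plcg1, the phospholipase that releases the calcium signal, was at 0.17, and Vav1, a guanine nucleotide exchange factor, at 0.03. Nck1 was at -0.06 and Grb2 at -0.07, both of which are adaptors with SH2 and SH3 domains. Rasgrp1, which activates Ras on binding diacylglycerol, was at -0.40 ± 0.39 with an SD of 0.83 among Dex arrays against 0.25 among Control arrays.

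The genes that mostly restrain the signal, 6 phosphatases, ubiquitin ligases and diacylglycerol kinases, held the only member called by limma (1.1% of all named genes were called), and 4 of the 6 had arrays that did not overlap, 2 in each direction (5.91% of all named genes were apart above and 5.78% below). Cblb, a ubiquitin ligase that sets the threshold of T cell activation, read 9.22, 9.13, 9.34 and 9.29 across Control and 10.65, 10.42, 11.01 and 10.68 across Dex (probe at chr11:49748192-49748251, rn3). The lowest Dex array was 10.42 and the highest Control array 9.34. Cblb rose by 1.45 ± 0.17 on the log2 scale (95% interval 1.06 to 1.83), or 2.72-fold, with a limma adjusted p of 0.00913, and it was higher in Dex by 1.79 within the shared slide. With the replicate number as a block, which treats same-numbered cultures as pairs, the difference was the same and limma's adjusted p was 0.0700, so that the call was lost. The call was also lost without Control 2 (limma adjusted p = 0.0530) and without Control 4 (limma adjusted p = 0.0520), where the differences were 1.41 and 1.46.

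Ptpn22, a tyrosine phosphatase that acts on Lck and ZAP-70, read 10.83, 10.77, 10.86 and 10.89 in Control and 11.43, 11.49, 11.50 and 11.49 in Dex. The SD was 0.05 within Control and 0.03 within Dex, and no Dex array came near a Control array. The difference was 0.64 ± 0.13 (1.56-fold; 95% interval 0.34 to 0.94) and 0.68 within the shared slide, and limma did not call it (adjusted p = 0.0836). limma called it with dim probes left out (adjusted p = 0.0293), after normexp correction (adjusted p = 0.000995), with the slide as a random block (adjusted p = 0.0123), and with a block for the split of replicates 1 and 2 from 3 and 4 (adjusted p = 0.0424), and the signal to noise rule called it too. It was not called in the other limma fits, among them the replicate block (adjusted p = 0.238), and limma's adjusted p reached 0.771.

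Dgka, a diacylglycerol kinase that removes the activator of Rasgrp1 and Prkcq, read 14.02, 14.07, 14.46 and 14.36 in Control and 13.36, 13.18, 13.73 and 13.78 in Dex. Replicates 3 and 4 were higher than replicates 1 and 2 in both groups, and still all Dex arrays were below all Control arrays. The difference was -0.71 ± 0.20 (1.64-fold lower; limma adjusted p = 0.220), and it was -0.29 within the shared slide. limma called it with the same split as a block (adjusted p = 0.0381) and with the slide as a random block (adjusted p = 0.0263), and in no other limma fit, where its adjusted p reached 0.821 (replicate block, adjusted p = 0.223). Dgkz, the zeta isoform of the same enzyme, was at -0.07 ± 0.22 with overlapping arrays, and Ptpn6, the phosphatase SHP-1, was at -0.16 ± 0.18.

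Ptprc, which encodes CD45, the membrane phosphatase that keeps Lck able to be activated, had 3 probes that did not move the same way. The brightest, at chr13:51265133-51265192 (rn3), read 9.70, 9.87, 9.68 and 9.80 in Control and 9.28, 9.30, 9.36 and 9.43 in Dex, a difference of -0.42 ± 0.13 (limma adjusted p = 0.297; -0.34 within the shared slide). The arrays did not overlap, and limma called this probe after normexp correction alone (adjusted p = 0.0444, and up to 0.771 in the other fits of this probe). The next along the chromosome, at chr13:51292907-51292966, was also lower on every Dex array (-0.75 ± 0.24, limma adjusted p = 0.294). The last, at chr13:51316811-51371847, spans 55037 bases of genome and therefore crosses at least 1 intron. It is printed because it differs from the others in direction.
Ptprc last probe: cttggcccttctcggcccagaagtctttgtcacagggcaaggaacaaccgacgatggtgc

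The last probe of Ptprc read 8.54, 8.52, 8.20 and 8.39 in Control and 8.97, 9.22, 8.28 and 8.79 in Dex. Dex 1, 2 and 4 were above all Control arrays and Dex 3 among them, and the difference was 0.40 ± 0.22 (limma adjusted p = 0.600). CD45 mRNA is known to be spliced into several isoforms that differ near the start of the coding sequence. Which isoforms the probes detect was not tested.

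**Figure D2:**
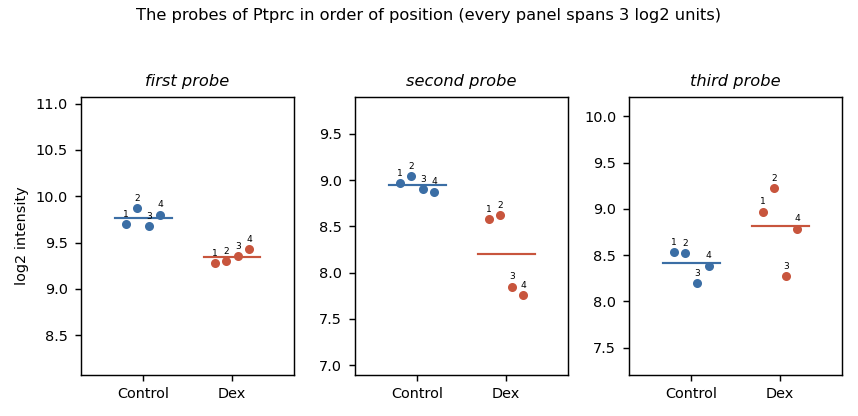
Log2 intensity (y axis) of the 3 Ptprc probes in the order of their rn3 positions on Control and Dex arrays (x axis), with the replicate number at each point and lines at the group means. The first and second probes are lower on all Dex arrays (-0.42 and -0.75), and the third is higher on 3 of 4 (0.40).

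Of the other surface receptors, Cd5 was separated and large, and Cd6 separated and small. Cd5, an inhibitory receptor whose level is known to follow the strength of T cell receptor signalling in thymocytes, read 11.45, 11.23, 11.25 and 11.60 in Control and 10.93, 10.89, 10.37 and 10.54 in Dex. Every Dex array was lower than every Control array, with replicates 3 and 4 the lowest. The difference was -0.70 ± 0.19 (1.63-fold lower; limma adjusted p = 0.197), and it was -1.08 within the shared slide. limma called Cd5 in 1 alternative fit only, that with the slide as a random block (adjusted p = 0.0456). That call is not counted as support, for the reason given for Lck. With the replicate block limma's adjusted p was 0.287, and the signal to noise rule called Cd5. Cd6, a related receptor encoded next to it (both within 74.43 kb of chr1:213374913-213449338, rn3), was lower on every Dex array by only 0.18 on average (-0.18 ± 0.14, limma adjusted p = 0.729), and its second probe, at -0.15, overlapped.

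Cd28 and Ctla4, which bind the same ligands and act as costimulator and inhibitor, were singled out after their values had been seen. They lie within 131.3 kb (chr9:59514654-59645948, rn3). Ctla4 read 6.50, 6.50, 7.05 and 6.47 in Control and 7.16, 6.97, 8.05 and 7.87 in Dex. Control 3 was above Dex 2, and otherwise all Dex arrays were higher. The difference was 0.88 ± 0.29 (1.84-fold; 95% interval 0.23 to 1.54), and limma did not call it (adjusted p = 0.300), while it was 1.55 within the shared slide. Cd28 read 5.17, 4.76, 4.87 and 4.87 in Control and 5.58, 5.80, 3.85 and 3.29 in Dex. Dex 1 and 2 were above all Controls and Dex 3 and 4 more than 0.5 below them, so that its mean difference of -0.29 ± 0.56 (limma adjusted p = 0.899) describes neither pair, and it was -1.32 within the shared slide.

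The remaining surface receptors overlapped and were not called by limma. Cd2, an adhesion receptor, was at -0.08 ± 0.31, Thy1, the common thymocyte surface marker, at -0.08 ± 0.18, and Cd69, which marks recent receptor signalling, at 0.16 ± 0.26. Of the transcription factors, Nfatc3 was at 0.01 ± 0.19, and at -0.33 ± 0.38 by its second, dimmer probe. Nfatc2 was at 0.51 ± 0.24 (limma adjusted p = 0.521), but only 3 of 4 Control and 2 of 4 Dex arrays showed its probe clearly above background, so that this difference was measured near the background.

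**Figure D3:**
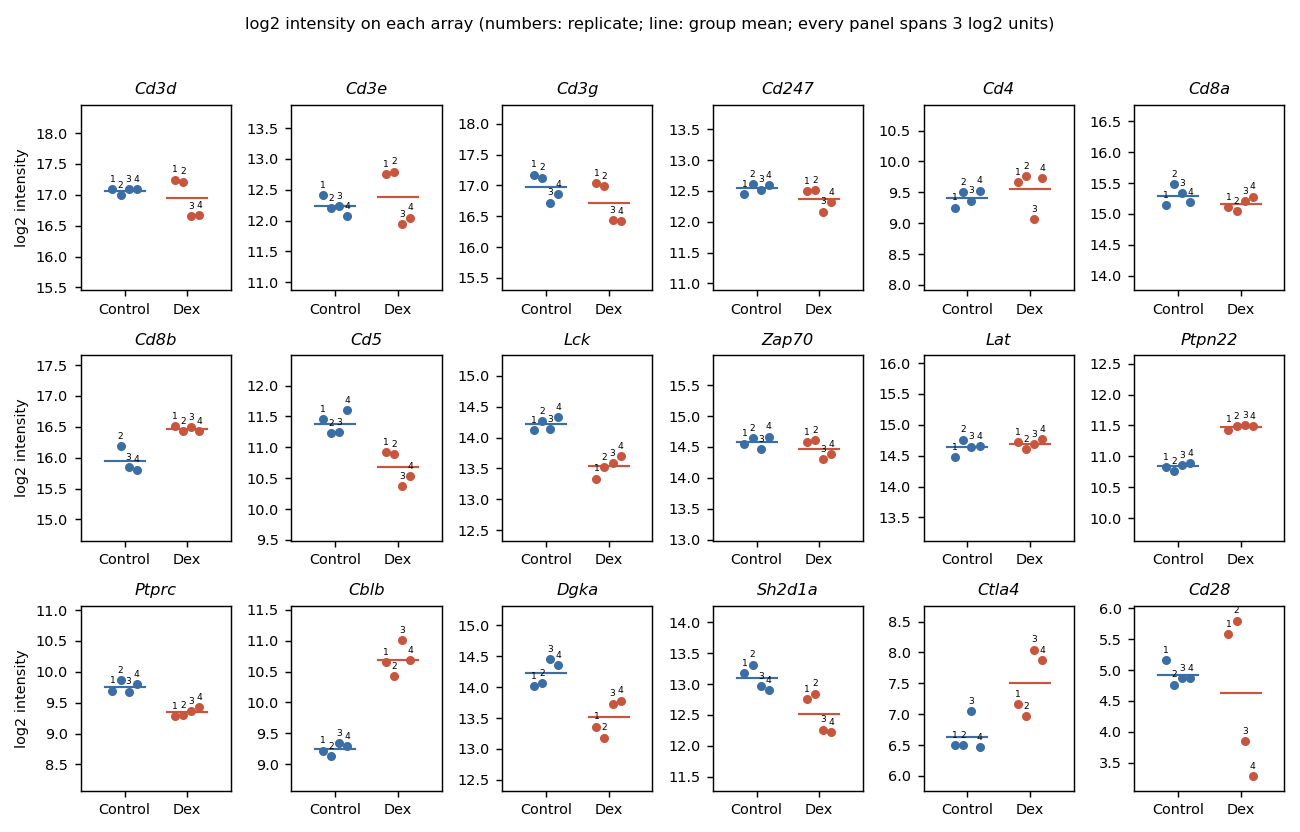
Log2 intensity (y axis, 3 log2 units in every panel) on the Control and Dex arrays (x axis) for 18 of the 36 genes, with the replicate number at each point and lines at the group means. Cblb and Ptpn22 are higher and Lck, Cd5, Ptprc, Dgka and Sh2d1a lower on all Dex arrays, while Cd3d, Cd3e and Cd28 separate Dex 1 and 2 from Dex 3 and 4.

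The Dex arrays of replicates 1 and 2 stood apart from those of replicates 3 and 4 in these genes about as often as over all named genes. Dex 1 and 2 both exceeded Dex 3 and 4 for 20 of the 36 genes (55.6%, against 47.1% of all named genes), and both lay below them for 9 (25%, against 32.4%). The median absolute gap between the pairs of Dex arrays was 0.33 for the 36 genes and 0.60 over all named genes, and between the pairs of Control arrays it was 0.09 and 0.24. Between the same Control arrays the numbers were 2 and 10 of 35 genes (5.71% and 28.6%, against 28.5% and 22.2% of all). By pairs of replicates, 16 of 35 genes were lower in Dex in both replicates 1 and 2 and replicates 3 and 4 (45.7%, against 22.2% of all named genes) and 6 were higher in both (17.1%, against 24.7%). A further 13 were higher in the first pair and lower in the second (37.1%, against 27%), and 0 went the other way, against 26.1%. The median difference of the members was 0.04 in replicates 1 and 2 and -0.29 in replicates 3 and 4, against 0.02 and 0.01 over all named genes.

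Genes differed in how far they followed this split. It was widest for Cd28, at 0.73 in replicates 1 and 2 and -1.31 in replicates 3 and 4, and for Rasgrp1, at 0.48 and -1.29. Both probes were dim, although above background on every array. On the Dex arrays Cd28 read 3.29 to 5.80 and Rasgrp1 4.32 to 6.01, where the median of all deposited values was about 5.5. Cd2 was at 0.45 and -0.60, Cd69 at 0.63 and -0.31, and Cd3d at 0.19 and -0.43. Genes whose arrays did not overlap between the groups differ less between the pairs in part by that choice. Of these, Ptpn22 was at 0.66 and 0.62, Cblb at 1.36 and 1.53, Lck at -0.76 and -0.59, Dgka at -0.77 and -0.65 and Ptprc at -0.49 and -0.35. Sh2d1a (-0.45 and -0.69), Cd6 (-0.21 and -0.14) and Cd5 (-0.43 and -0.97) differed more in proportion. Dex 1 and 2 were also the arrays with the fewest probes above background (26471 and 24903, against 33283 and 33401 for Dex 3 and 4). The 75th percentile of the signal before normalization was 425 and 401 on Dex 1 and 2. On Dex 3 and 4 it was 266 and 264, the lowest values of all arrays. Markers of other cells also differed between these arrays. Dex 1 and 2 were both below Dex 3 and 4 for 5 of 12 stromal and epithelial genes and above them for 2. For natural killer genes it was 3 of 6 each way, with summed signals of 2860 and 2474 on Dex 1 and 2 and 4047 and 4983 on Dex 3 and 4. It was 3 below and 6 above of 12 macrophage genes, 3 each way of 8 double positive thymocyte genes, and 0 below and 1 above of 2 erythroid genes. The part of these shifts in the split was not tested.

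**Figure D4:**
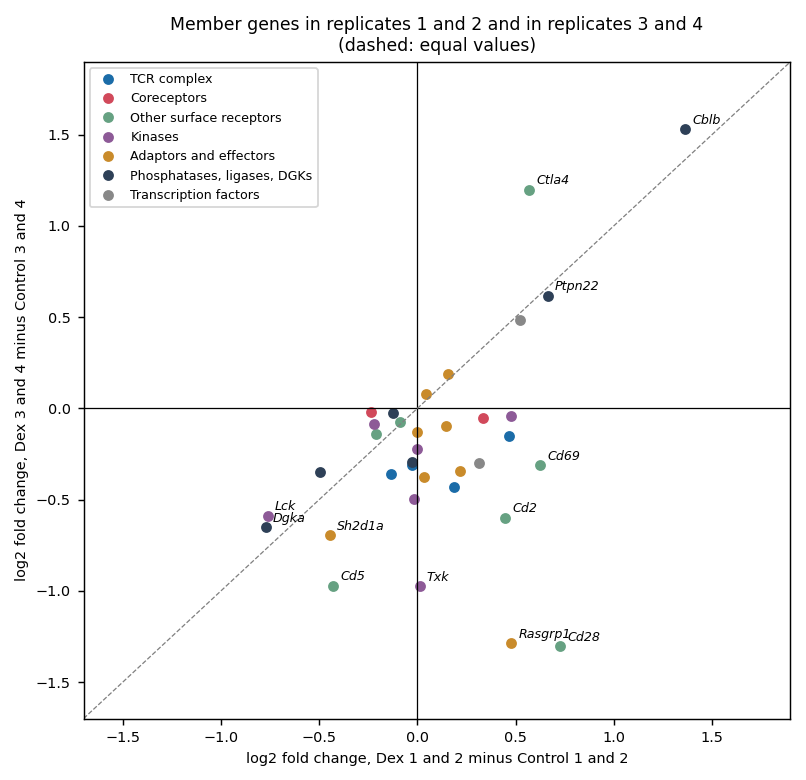
Log2 fold change in replicates 1 and 2 (Dex minus Control, x axis) against that in replicates 3 and 4 (y axis) for the 35 genes with all arrays, coloured by role, where the dashed line marks equal values. Cblb, Ptpn22, Lck and Dgka lie near the line, and 13 genes lie below 0 in replicates 3 and 4 but above 0 in replicates 1 and 2, with Cd28 and Rasgrp1 the farthest down.

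The wider antigen receptor pathway was represented by 71 other genes, from calcium and Ras signalling to further surface receptors. Of these, 27 were higher and 44 lower in Dex, with a median of -0.08, and limma called 1, Pik3r1, where it called 1.1% of all named genes. The signal to noise rule called 4 higher and 12 lower (5.63% and 16.9%, beside 4.67% and 4.25% of all named genes), and 3 and 14 had arrays that did not overlap (4.23% and 19.7%, beside 5.91% and 5.78% of all). Pik3r1, the regulatory subunit of PI 3-kinase, read 6.18, 6.39, 6.12 and 6.51 in Control and 7.71, 7.72, 7.33 and 7.14 in Dex. All Dex arrays were higher. It rose by 1.17 ± 0.19 on the log2 scale (2.26-fold; limma adjusted p = 0.0409), and by 1.15 within the shared slide, while after normexp correction the difference was 0.68 (limma adjusted p = 0.0154). The call was lost with the replicate number as a block (limma adjusted p = 0.168) and when any array was left out (limma adjusted p between 0.0517 and 0.149).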

How the data were processed

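The authors labeled RNA with Cy3, hybridized it to Agilent rat genome arrays (1 color) and read spot intensities with Feature Extraction version 9.5.3.1, which subtracts background. These deposited intensities carry no normalization between arrays. The authors also deposited log2 values, quantile normalized, with 1 value per probe from median polish. These steps were repeated here on the intensities without spots flagged as outliers, which left 16 missing values among 41012 probes. No spot was saturated. Positions in build rn3 come from the scanner output, whose gene models were not used here.

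limma (version 3.58.1, R version 4.3.3; lmFit and eBayes, two-sided) tested Dex against Control on all 8 arrays without a block, and p-values were adjusted by Benjamini-Hochberg across every probe, with 0.05 as the threshold. The signal to noise measure that the study used (difference of means over the sum of SDs) was set against a null that differs from the random sample and probe permutations of the study, namely the 70 possible array assignments with probes pooled, at a one-tailed p of 0.01 before adjustment and a fold of 1.2. The study states fewer replicates than were deposited, and no label says which arrays it used, so all were kept.

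The members, the lists of other pathway genes and cell markers, and the rules were chosen with earlier results of these data known, so no list was tested as a set. The result of 1 list of cell markers is not reported here. Values of every array are given for members that passed a rule (limma, signal to noise, or arrays apart with an absolute log2 fold change of at least 0.5), and for the CD3 chains, coreceptors, Lck, Zap70 and Lat. Of the other pathway genes, those that limma called are named. The 6 promoter motifs were chosen as sites of the glucocorticoid receptor and of T lineage factors.

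Across probes, the deviations of arrays from their group means correlated at 0.40, 0.13, 0.55 and 0.18 between Control and Dex arrays numbered 1 to 4. As all exceed 0.1, the numbers were treated as pairs in the replicate block. Correlations between arrays of unlike number were not set beside these, so the pairing itself was not tested. The values reported come from the fit without the block, and the blocked value is given where it changes the call of a member or other pathway gene.

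The alternatives were scaling to the 75th percentile, normexp background correction with an offset of 50, the deposited log2 table, leaving out dim probes, blocks for replicate, for slide or for the split of replicates 1 and 2 from 3 and 4, the mean of a gene's probes, the signal to noise rule, and leaving out each array. Precision is limited by having 4 arrays per group.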

Additional observations from a re-analysis of the deposited data

Results flagged for a closer look

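In each group of 4 arrays, the gap between the highest or lowest array and its nearest neighbour was set against the range of the group, in 71 groups (36 genes in Control and Dex, without the Control group of Cd8b). In 4 groups 1 array stood far from the others by Dixon's criterion at 95%, and chance alone gives about 1 in 20 groups. For Cd3d, Control 2 at 16.99 was below the others, at 17.09 to 17.10, so that the gap took 0.990 of the range, although the whole range was small. For Cd4, Dex 3 at 9.06 was below the others, at 9.66 to 9.76 (0.862 of the range). For Ctla4, Control 3 at 7.05 was above the others, at 6.47 to 6.50 (0.949 of the range), and it is the array that makes the groups of Ctla4 overlap. For Nfatc3, Control 1 at 8.73 was below the others, at 9.22 to 9.30 (0.856 of the range).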

How the results depend on the processing

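The number of members that limma called, 1 in the fit reported, was 4 after normexp correction, 3 with dim probes left out, 5 with the slide as a random block (estimated correlation -0.24), 3 with a block that splits replicates 1 and 2 from 3 and 4, 0 with the slide as a fixed block, and 6 by the signal to noise rule. In the paired analysis, with the replicate block, it was 0. Without 1 array it was 0 to 1, with the call of Cblb lost without Control 2 or Control 4. It was 1 with 75th percentile scaling, the deposited log2 table and the mean of a gene's probes. The 5 with the slide as a random block are not counted as support. The negative correlation of that fit narrows the error where a slide holds a single group. For the other pathway genes the number, 1 in the fit reported, was 8, 5, 5, 3, 0 and 16 in the same order, 0 with the replicate block and 0 to 0 without 1 array. The median log2 fold change of the members was below 0 throughout, between -0.29 and -0.03, and moved beyond the spread of the array medians only with the slide as a fixed block (-0.29). That fit rests on Dex 3 minus Control 1 alone, and in it 6 of 35 members turned their direction, Cd3e (-0.47), Cd4 (-0.19), Cd8a (0.064), Cd69 (-0.38), Vav1 (-0.27) and Dgkz (0.52), as did Cd28 without Dex 4 (0.16, in a range of -0.64 to 0.16 without 1 array). Leaving out 1 array turned 1 to 3 members at a time (without Dex 3, Cd2, Nck1 and Grb2), with no turned value above 0.16 in size, the slide as a fixed block turned 6, by up to 0.52, and the other alternatives turned 0 to 2. Among the members and the other pathway genes, the replicate block changed no call other than those of Cblb and Pik3r1. It was not examined for the cell markers, Pecam1 among them. Lck was between -0.73 and -0.53 and Ptpn22 between 0.61 and 0.68 in all 18 alternatives. Over all probes limma called 319 in the fit reported, 166 with 75th percentile scaling, 915 after normexp correction, 562 without dim probes, 81 with the replicate block, 1840 with the slide as a random block, 1 with it as a fixed block, 670 with the block that splits the replicates, 247 with the mean of a gene's probes and 100 to 245 without 1 array, and the signal to noise rule called 2784.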

Other observations

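Of the other genes of the antigen receptor pathway, 4 stood out after their values had been seen, none of them called by limma in the fit reported. Ly9 and Lax1 were higher on all Dex arrays. Ly9, a receptor of the SLAM family, was between 6.57 and 6.77 in Control and between 7.38 and 8.02 in Dex (0.97 ± 0.17, limma adjusted p = 0.0582). Lax1, a membrane adaptor that restrains antigen receptor signalling, was between 8.18 and 8.63 in Control and between 9.02 and 9.15 in Dex (0.68 ± 0.15, limma adjusted p = 0.115). Ptpn7 and Spn were lower on all Dex arrays. Ptpn7, a tyrosine phosphatase of lymphocytes that acts on MAP kinases, was between 11.05 and 11.27 in Control and between 10.34 and 10.59 in Dex (-0.70 ± 0.14, limma adjusted p = 0.0905). Spn, the sialoglycoprotein CD43, was between 13.52 and 13.73 in Control and between 12.63 and 13.17 in Dex (-0.77 ± 0.17, limma adjusted p = 0.108).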
